A study of Mus musculus with 12 samples.

Results

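The messenger RNA of 10 immune checkpoint and costimulatory genes was followed in mouse natural killer (NK) cell preparations, namely the ligand gene Cd274, the inhibitory receptor genes Pdcd1, Ctla4, Lag3, Havcr2 and Tigit, and the costimulatory receptor genes Icos, Tnfrsf9, Tnfrsf4 and Tnfrsf18. They were picked out by gene symbol. All 10 were present among the 50643 genes of the count table, and all 10 were among the 16694 genes that passed the filter on low counts. The smallest count of any of them in any library was 12 reads, for Pdcd1.

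Checkpoint receptors carry inhibitory signals into a lymphocyte after they bind ligands on neighbouring cells, and costimulatory receptors carry signals that add to those of activating receptors. PD-L1, the Cd274 product, binds PD-1, the Pdcd1 product. The costimulatory receptors of the tumour necrosis factor (TNF) receptor superfamily signal through TRAF adaptors to the NF-kB transcription factors. Most of these genes are best known from T cells, and several are also induced on activated NK cells.

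The libraries were made from polyadenylated RNA of NK cells of C57BL/6 mouse spleen. The cells were isolated by negative selection, which removes other cells by their markers and leaves the NK cells unlabelled, so that cells missed by the selection stay in the preparation. Mice were Mirc11-/- or wild-type, and of each genotype some were challenged with Listeria, an intracellular bacterium, and some were not. There were 4 groups of 3 libraries: Mirc11-/- challenged, Mirc11-/- unchallenged, wild-type challenged and wild-type unchallenged, called knockout and wild-type here. Age, sex, dose, the time of harvest, and whether each library came from its own animal were not given in the sources used here, so p-values measure the spread between these libraries, which may be partly technical.

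Mirc11 is a cluster of 3 microRNAs that the knockout lacks. A microRNA represses messenger RNAs mainly through pairing of its seed, bases 2 to 8, with their 3′ untranslated regions. The mature sequences are shown because they are what the knockout is built to remove. They are from RefSeq (GRCm38.p6, chromosome 8, plus strand), with the seed in capitals.
mmu-miR-23a-3p: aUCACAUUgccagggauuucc
mmu-miR-27a-3p: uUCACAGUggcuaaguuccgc
mmu-miR-24-3p: uGGCUCAGuucagcaggaacag
The 3 seeds differ, although those of mmu-miR-23a-3p and mmu-miR-27a-3p both start with UCACA. Matches to seed bases 2 to 8 were searched in the longest annotated 3′ untranslated region of each gene, as AATGTGA for mmu-miR-23a-3p, ACTGTGA for mmu-miR-27a-3p and CTGAGCC for mmu-miR-24-3p. These regions ranged from 81 bases in Lag3 to 2683 bases in Cd274, against a median of 1333 bases over 13543 tested genes. A single match was found in the 10 genes, for mmu-miR-27a-3p in Tnfrsf9 at chr4:150945781-150945787 on the plus strand (GRCm38), printed here with its flanks and with the match in capitals.
Tnfrsf9 site: aagggacaaagcACTGTGAggtggggaaca
Of the 13543 genes, 17.1% held a match for mmu-miR-23a-3p, 19.0% for mmu-miR-27a-3p and 21.0% for mmu-miR-24-3p. A match is a description of the letters and was not tested as a working site.

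Promoter windows of 250 bases before to 50 bases after the annotated start were in the RefSeq table (GRCm38.p6) for 8 of the 10 genes, with 2 windows for Tnfrsf9. Lag3 and Icos had no entry. Both strands were searched for NF-kB letters in a wide form, GGG and TCC with any 4 bases between them, and in a narrow form, GGGA and TTCC with any 2 bases between them, which is a subset of the first, for AP-1 as TGANTCA, for the GAS element as TTCNNNGAA and for the interferon element ISRE as TTTC repeated after any 2 bases. The windows of 3 genes held a match, and they are shown, with the matches in capitals, because of those matches. All 10 genes rose with challenge in wild-type libraries, those without a match included.
Tnfrsf9 (chr4:150927749-150928048, plus strand): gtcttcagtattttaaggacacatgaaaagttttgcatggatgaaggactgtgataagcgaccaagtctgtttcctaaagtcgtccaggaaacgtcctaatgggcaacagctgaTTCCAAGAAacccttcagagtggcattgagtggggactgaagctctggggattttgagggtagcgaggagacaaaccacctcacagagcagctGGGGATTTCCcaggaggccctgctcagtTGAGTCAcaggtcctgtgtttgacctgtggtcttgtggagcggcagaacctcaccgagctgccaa
Havcr2 (chr11:46454681-46454980, plus strand): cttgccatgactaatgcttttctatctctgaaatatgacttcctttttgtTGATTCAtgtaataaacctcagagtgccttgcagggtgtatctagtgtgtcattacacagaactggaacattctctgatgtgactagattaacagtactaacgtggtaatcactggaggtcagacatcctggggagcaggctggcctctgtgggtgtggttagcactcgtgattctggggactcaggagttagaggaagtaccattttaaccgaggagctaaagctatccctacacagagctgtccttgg
Tnfrsf18 (chr4:156026072-156026371, plus strand): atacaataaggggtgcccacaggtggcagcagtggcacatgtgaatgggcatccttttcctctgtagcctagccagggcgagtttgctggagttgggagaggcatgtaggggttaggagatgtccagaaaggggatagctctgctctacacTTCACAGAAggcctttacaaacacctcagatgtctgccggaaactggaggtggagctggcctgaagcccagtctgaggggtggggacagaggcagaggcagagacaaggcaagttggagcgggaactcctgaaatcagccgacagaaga
The Tnfrsf9 window printed above held a GAS, a wide-form NF-kB and an AP-1 match, starting at -136, -43 and -15 from its start site. The other Tnfrsf9 window (chr4:150919905-150920204, plus strand) held no match. Havcr2 held an AP-1 match at -200 and Tnfrsf18 a GAS match at -99. Over 32851 windows of the same length, 19.2% held the wide and 1.47% the narrow NF-kB form, 7.81% AP-1, 8.30% GAS and 3.44% ISRE. No match in a window says only that these letters are not in it.

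Library totals ranged from 17624530 to 23665679 counts. Levels are given as counts per 1000000 counts of the library (CPM), and fold changes, with their standard errors (SE), are from a model of all 12 libraries with edgeR's quasi-likelihood test, in which a gene was called at a Benjamini-Hochberg adjusted p below 0.05 over all 16694 genes. The NK markers checked the labelled cell type: the 16 of them summed to 7912 to 8357 CPM in challenged knockout, 10810 to 10846 in unchallenged knockout, 5871 to 6048 in challenged wild-type and 10309 to 11563 in unchallenged wild-type libraries. With challenge, 0 of the 16 rose and 13 fell in knockout, and 2 rose and 13 fell in wild-type. In challenged knockout against challenged wild-type libraries, 11 were higher and 2 lower (median log2 0.82). The 3 microRNA genes had 0 counts in every library, so they checked no genotype label. Gm26532, a gene annotated just downstream of the microRNAs and chosen after its values were seen, had 0.887, 0.984 and 2.70 CPM in challenged knockout and 0.113, 0.498 and 0.149 CPM in unchallenged knockout libraries, against 2.34, 4.27 and 3.40 CPM in challenged wild-type and 2.67, 2.35 and 4.88 CPM in unchallenged wild-type libraries. The library labelled challenged knockout replicate 3 thus lay within the wild-type range, and whether Gm26532 lies in the deleted part was not given in the sources used here. Sex-linked genes also differed with the groups. Xist, made in female cells, ranged over 526 to 1027 CPM in challenged knockout and 0.362 to 1.08 CPM in unchallenged knockout libraries, against 1154 to 1464 CPM in challenged wild-type and 1198 to 2025 CPM in unchallenged wild-type libraries. The Y-linked Ddx3y ranged over 44.1 to 80.5 CPM in challenged knockout and 83.6 to 135 CPM in unchallenged knockout libraries, and had at most 0.133 CPM in challenged wild-type libraries. It had 34.6 CPM in unchallenged wild-type replicate 4, against 0.0546 and 0.102 CPM in the other libraries of that group. Every challenged knockout library and unchallenged wild-type replicate 4 thus held both Xist and Ddx3y reads, as RNA of both sexes together would give. Whether animals were pooled was not given in the sources used here. In comparisons that use knockout libraries, sex and group cannot be told apart. The challenged wild-type libraries and unchallenged wild-type replicates 2 and 3 all had Ddx3y at or below 0.133 CPM, and all 10 genes were called with challenge in wild-type without replicate 4. Results that changed without these doubted libraries, challenged knockout replicate 3 and unchallenged wild-type replicate 4, are given with that value.

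In wild-type preparations all 10 genes rose after challenge, and in knockout preparations 6 rose, 1 fell and 3 were not called. Every one of the 10 was lower in challenged knockout than in challenged wild-type libraries, with no overlap between the groups. The background was as follows: 15.6% of all genes tested were called higher and 11.5% lower with challenge in knockout, 32.4% were called higher with challenge in wild-type, and 25.9% were called lower in challenged knockout against challenged wild-type, where 22.3% were lower with no overlap. The median log2 change of the 10 was 0.39 with challenge in knockout, 2.00 with challenge in wild-type and -1.69 in challenged knockout against challenged wild-type. The median of all genes in the same comparisons was -0.01, -0.01 and 0.00. Without the 2 doubted libraries the calls numbered 9 with challenge in knockout, 10 with challenge in wild-type and 10 in challenged knockout against challenged wild-type. Those 9 were the highest knockout count of any setting. It was 5 with upper-quartile scaling or limma-voom and 4 with a block on replicate number. Among the 6 knockout rises, the Havcr2 call held in only 5 and the Tigit call in only 8 of 22 other settings.

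**Figure D1:**
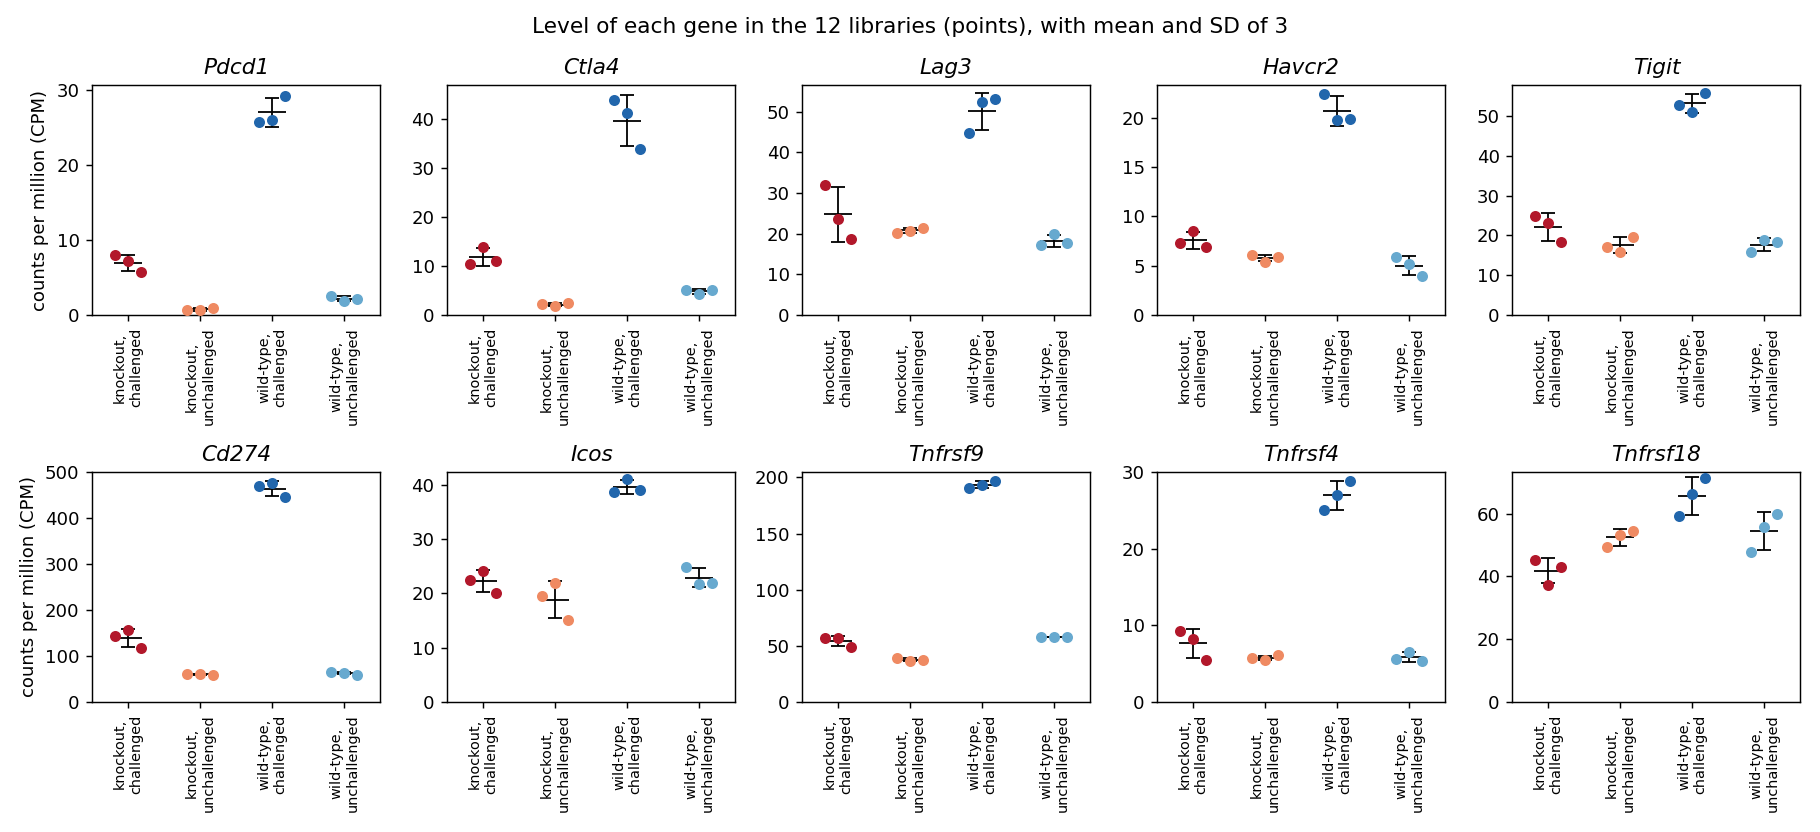
Level of each of the 10 genes in CPM (linear axis from 0) in each of the 12 libraries, as points, with the mean and SD of the 3 libraries of a group as bars. Challenged wild-type libraries were above all others for 9 of the 10 genes and overlapped unchallenged wild-type libraries for Tnfrsf18, while challenged knockout libraries of Lag3, Tigit, Icos and Tnfrsf4 overlapped the unchallenged knockout libraries.

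Cd274, the ligand gene, had the highest level per exon length of the 10 in challenged libraries. It stood at 143, 156 and 117 CPM in challenged knockout and at 61.3, 59.7 and 58.3 CPM in unchallenged knockout libraries. In wild-type it stood at 469, 477 and 446 CPM after challenge, against 64.0, 63.6 and 59.5 CPM without. Both challenged groups were above both unchallenged groups in every library, and the unchallenged groups of the genotypes overlapped. The log2 change with challenge was 1.20 ± 0.08 (SE) in knockout and 3.00 ± 0.08 in wild-type, with adjusted p of 4.15e-08 and 4.91e-13 by edgeR's quasi-likelihood test. After challenge, knockout libraries were 3.58-fold lower than wild-type libraries (log2 -1.84 ± 0.08, edgeR adjusted p = 1.73e-10). Without challenge the log2 difference was -0.04 ± 0.08 (edgeR adjusted p = 0.835).

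Pdcd1 and Ctla4 form a pair within the inhibitory receptors: they had the largest changes with challenge in both genotypes and were already lower in unchallenged knockout than in unchallenged wild-type libraries. Pdcd1 encodes PD-1, whose tail recruits phosphatases. It had 7.94, 7.17 and 5.76 CPM in challenged knockout and 0.681, 0.678 and 0.990 CPM in unchallenged knockout libraries. In wild-type it had 25.8, 25.9 and 29.2 CPM after challenge, against 2.51, 1.89 and 2.13 CPM without. The 4 groups did not overlap, with unchallenged knockout the lowest. Its log2 change with challenge was 3.13 ± 0.19 in knockout and 3.73 ± 0.15 in wild-type (edgeR adjusted p = 1.25e-08 and 1.71e-11), which are 8.77-fold and 13.3-fold. Knockout was lower than wild-type by log2 -2.05 ± 0.13 after challenge and by -1.45 ± 0.22 without (edgeR adjusted p = 9.37e-09 and 0.000342).

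Ctla4 encodes a receptor that competes with CD28 for CD80 and CD86. It had 10.5, 13.9 and 11.2 CPM in challenged knockout and 2.21, 1.76 and 2.48 CPM in unchallenged knockout libraries. The wild-type libraries stood at 43.9, 41.3 and 33.9 CPM after challenge, against 5.13, 4.30 and 5.08 CPM without. Again the 4 groups did not overlap and kept the same order. The log2 change with challenge was 2.45 ± 0.16 in knockout and 3.14 ± 0.14 in wild-type (edgeR adjusted p = 3.07e-08 and 4.51e-11). Knockout was lower than wild-type by log2 -1.84 ± 0.13 after challenge and by -1.15 ± 0.18 without (edgeR adjusted p = 1.98e-08 and 0.000337).

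Lag3, Havcr2 and Tigit rose 2.94-fold, 4.44-fold and 3.23-fold in wild-type libraries and had fitted changes of 1.19-fold, 1.299-fold and 1.25-fold in knockout libraries. Lag3 encodes a CD4-related receptor that binds MHC class II. It had 31.9, 23.7 and 18.7 CPM in challenged knockout and 20.3, 20.8 and 21.3 CPM in unchallenged knockout libraries. The wild-type libraries had 44.7, 52.3 and 53.1 CPM after challenge, against 17.1, 19.95 and 17.8 CPM without. The knockout groups overlapped, with the challenged libraries on both sides of the unchallenged ones, and the wild-type groups did not. The log2 change was 0.25 ± 0.15 in knockout, which was not called (edgeR adjusted p = 0.254), and 1.55 ± 0.15 in wild-type (edgeR adjusted p = 4.43e-07). Without the library labelled challenged knockout replicate 3 the knockout value was 0.41 and passed (edgeR adjusted p = 0.0316), while without replicate 1 of that group it was 0.01. After challenge Lag3 was lower in knockout than in wild-type by log2 -1.11 ± 0.14 (edgeR adjusted p = 2.20e-05).

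Havcr2 encodes TIM-3, a receptor of galectin-9 among other ligands. It had 7.27, 8.48 and 6.93 CPM in challenged knockout and 6.07, 5.43 and 5.84 CPM in unchallenged knockout libraries. Wild-type levels were 22.4, 19.7 and 19.9 CPM after challenge, against 5.84, 5.22 and 3.96 CPM without. Neither genotype's groups overlapped, but the gap in knockout was small. The log2 change was 0.38 ± 0.13 in knockout (edgeR adjusted p = 0.0493) and 2.15 ± 0.13 in wild-type (edgeR adjusted p = 1.43e-09). The knockout call held in only 5 of 22 other settings. It was lost without any 1 of the 3 challenged knockout, the 3 unchallenged knockout or the 3 challenged wild-type libraries, or without unchallenged wild-type replicate 3, and the adjusted p reached 0.158 without challenged knockout replicate 2. After challenge Havcr2 was lower in knockout than in wild-type by log2 -1.55 ± 0.12 (edgeR adjusted p = 9.57e-08).

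Tigit encodes a receptor of PVR that is related to the activating CD226. It had 24.9, 23.1 and 18.3 CPM in challenged knockout and 17.1, 15.9 and 19.7 CPM in unchallenged knockout libraries. Wild-type libraries were at 52.7, 51.1 and 55.8 CPM after challenge, against 15.8, 18.9 and 18.3 CPM without. The knockout groups overlapped through challenged replicate 3, and the wild-type groups were far apart. The log2 change was 0.32 ± 0.11 in knockout (edgeR adjusted p = 0.0480) and 1.69 ± 0.11 in wild-type (edgeR adjusted p = 3.99e-09). The knockout call held in 8 of 22 other settings. It was lost without challenged knockout replicate 1 or 2, unchallenged knockout replicate 2 or 3, any challenged wild-type library, or unchallenged wild-type replicate 3 or 4, with an adjusted p of up to 0.190. After challenge Tigit was lower in knockout than in wild-type by log2 -1.36 ± 0.11 (edgeR adjusted p = 1.02e-07).

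Icos, the CD28-family costimulatory receptor that binds ICOS ligand, had the smallest wild-type response after Tnfrsf18. It had 22.5, 24.2 and 20.1 CPM in challenged knockout and 19.5, 21.8 and 15.2 CPM in unchallenged knockout libraries. In wild-type it had 38.8, 41.1 and 39.1 CPM after challenge, against 24.9, 21.8 and 21.9 CPM without. The challenged wild-type libraries stood above all others, and the other 3 groups overlapped one another. The log2 change was 0.23 ± 0.11 in knockout, which was not called (edgeR adjusted p = 0.154), and 0.90 ± 0.11 in wild-type (edgeR adjusted p = 4.22e-06). Without unchallenged knockout replicate 3, the highest of its group, the knockout value was 0.36 and passed (edgeR adjusted p = 0.0444). After challenge Icos was lower in knockout than in wild-type by log2 -0.93 ± 0.11 (edgeR adjusted p = 5.81e-06).

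The 3 TNF receptor superfamily genes behaved in 3 ways. Tnfrsf9 encodes 4-1BB, a receptor induced on activated T and NK cells. It had 57.0, 57.0 and 49.3 CPM in challenged knockout and 38.9, 36.6 and 37.6 CPM in unchallenged knockout libraries. In wild-type it had 191, 193 and 197 CPM after challenge, against 57.7, 57.8 and 58.2 CPM without. Challenged knockout libraries thus stayed just under the unchallenged wild-type libraries. The log2 change with challenge was 0.52 ± 0.06 in knockout and 1.85 ± 0.06 in wild-type (edgeR adjusted p = 2.00e-05 and 2.38e-12). Knockout was lower than wild-type by log2 -1.93 ± 0.06 after challenge and by -0.60 ± 0.06 without (edgeR adjusted p = 9.40e-12 and 9.95e-06). This is the gene with the mmu-miR-27a-3p match and the 3 promoter matches printed above.

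Tnfrsf4 encodes OX40, the receptor of the Tnfsf4 product. It had 9.25, 8.15 and 5.53 CPM in challenged knockout and 5.67, 5.52 and 6.09 CPM in unchallenged knockout libraries. In wild-type libraries it was at 25.03, 27.1 and 28.9 CPM after challenge, against 5.57, 6.55 and 5.33 CPM without. The knockout groups overlapped only through challenged replicate 3. The log2 change was 0.40 ± 0.16 in knockout, which was not called (edgeR adjusted p = 0.0740), and 2.32 ± 0.15 in wild-type (edgeR adjusted p = 3.08e-09). Without the library labelled challenged knockout replicate 3 the knockout value was 0.58 and passed (edgeR adjusted p = 0.00403). After challenge Tnfrsf4 was lower in knockout than in wild-type by log2 -1.91 ± 0.15 (edgeR adjusted p = 5.46e-08).

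Tnfrsf18, which encodes GITR, a receptor abundant on regulatory T cells, was the 1 gene of the 10 that fell with challenge in knockout libraries. It had 45.1, 37.3 and 42.9 CPM in challenged knockout and 49.4, 53.3 and 54.5 CPM in unchallenged knockout libraries. Its wild-type levels were 59.4, 66.2 and 71.3 CPM after challenge, against 47.9, 55.7 and 59.8 CPM without. The knockout groups did not overlap, while the wild-type groups did, narrowly. The log2 change was -0.34 ± 0.10 in knockout (edgeR adjusted p = 0.0205) and 0.37 ± 0.10 in wild-type (edgeR adjusted p = 0.00391). The knockout call was lost without challenged knockout replicate 2, where the adjusted p was 0.0938, and without unchallenged knockout replicate 3 or 4, where it was 0.0682 and 0.0730. After challenge Tnfrsf18 was lower in knockout than in wild-type by log2 -0.75 ± 0.10 (edgeR adjusted p = 1.76e-05).

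**Figure D2:**
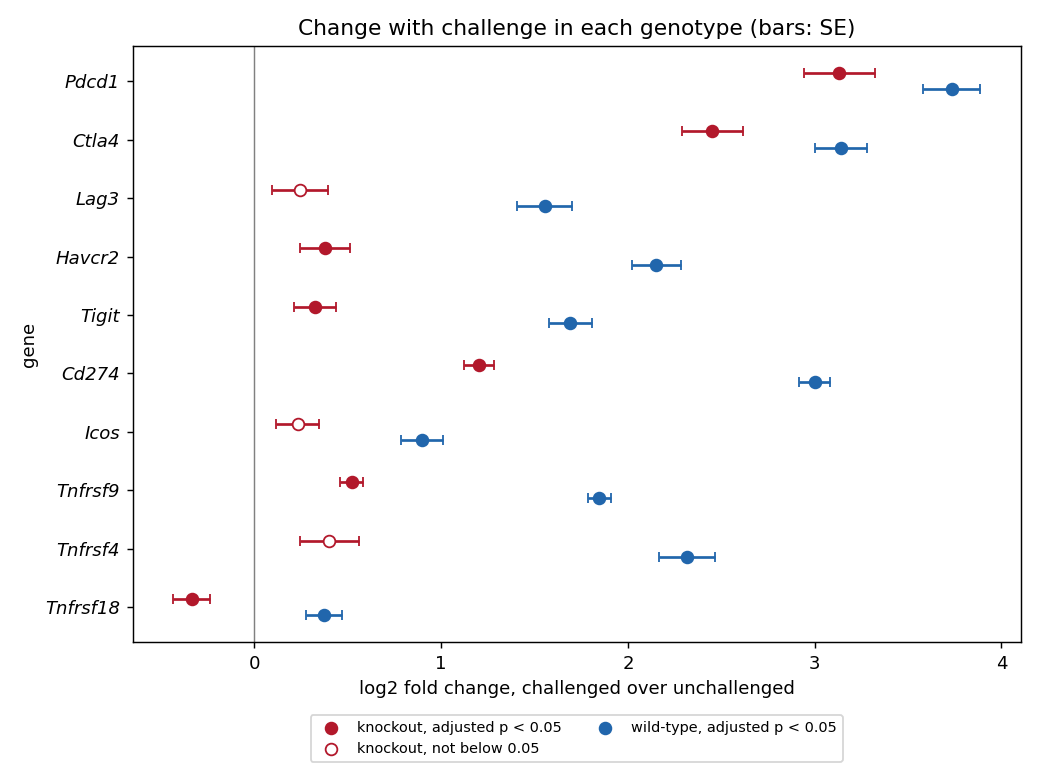
Log2 fold change with challenge of each of the 10 genes in knockout (red) and wild-type (blue) preparations, with SE bars; open circles are changes not called. Wild-type points lie right of the knockout point for all 10 genes, from 0.37 for Tnfrsf18 to 3.73 for Pdcd1.

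The difference between the responses of the genotypes was tested directly, as the log2 change with challenge in knockout minus that in wild-type. Of the 10 genes, 9 had a lower response in knockout, where 18.5% of all genes tested were called lower. The difference was largest for Tnfrsf4, at -1.91 ± 0.22, Cd274, at -1.80 ± 0.11, and Havcr2, at -1.77 ± 0.19 (edgeR adjusted p = 7.76e-06, 2.67e-08 and 3.92e-06). Tigit, Tnfrsf9 and Lag3 lay between -1.37 and -1.31, and Tnfrsf18 and Icos at -0.71 and -0.67. The difference was -0.69 ± 0.22 for Ctla4 (edgeR adjusted p = 0.0242). For Pdcd1 it was -0.60 ± 0.27 and was not called (edgeR adjusted p = 0.0983), which does not show that the responses were equal. As a share of the wild-type log2 change, the knockout change was 83.9% for Pdcd1 and 78.1% for Ctla4, 40.1% for Cd274, 28.2% for Tnfrsf9, 19.1% for Tigit and 17.6% for Havcr2. No share is given for Lag3, Icos and Tnfrsf4, whose knockout change was not called, or for Tnfrsf18, which fell in knockout. The shares of Tigit and Havcr2 rest on knockout calls that held in only 8 and 5 of 22 other settings. Their knockout changes, 0.32 and 0.38, were no larger than the uncalled 0.40 of Tnfrsf4. The Ctla4 call was lost without unchallenged knockout replicate 2 or 4, challenged wild-type replicate 1 or unchallenged wild-type replicate 3, with an adjusted p of up to 0.0954. It was also lost without both doubted libraries (-0.70, edgeR adjusted p = 0.0636), with column totals alone (-0.57, edgeR adjusted p = 0.0572) and with limma-voom (-0.68, adjusted p = 0.0709). The Pdcd1 difference passed without challenged knockout replicate 1, at -0.72 (edgeR adjusted p = 0.0439).

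Without challenge, 3 of the 10 genes were lower in knockout than in wild-type libraries, namely Pdcd1, Ctla4 and Tnfrsf9, where 5.07% of all genes tested were called lower. The other 7 were not called, with log2 differences from -0.26 for Icos to 0.23 for Havcr2. Lag3 was higher in all 3 unchallenged knockout libraries than in the 3 unchallenged wild-type libraries, by log2 0.20 ± 0.15, without passing the test (edgeR adjusted p = 0.510), and 14.4% of all genes were higher with no overlap in this comparison.

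**Figure D3:**
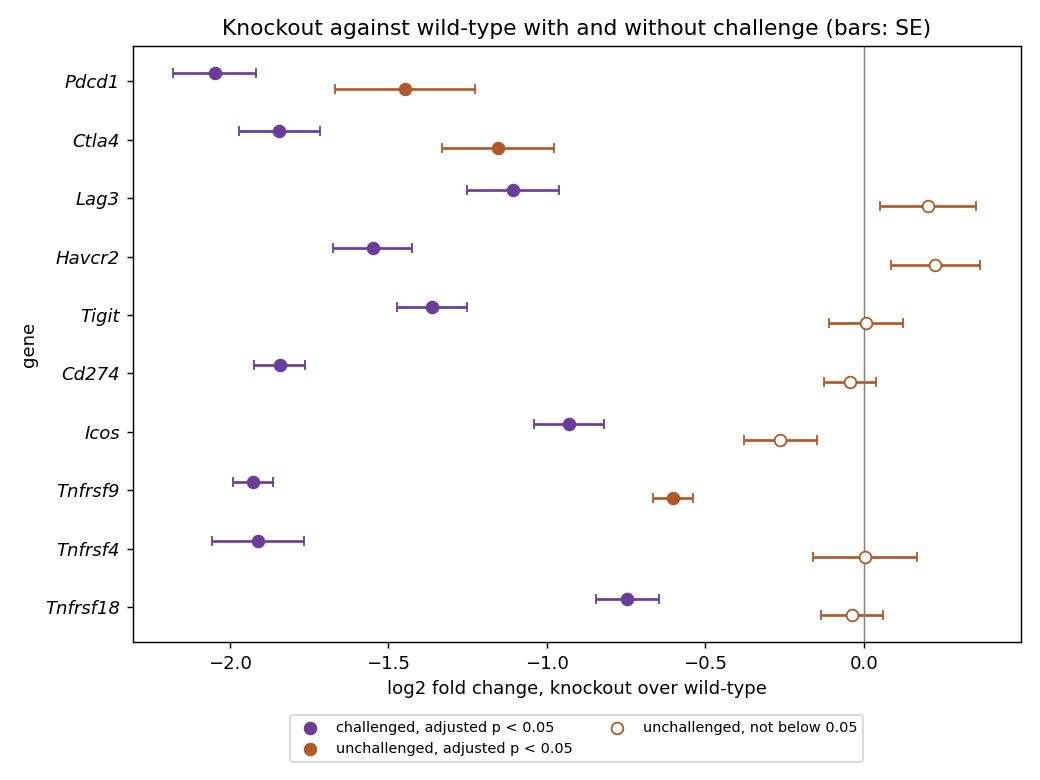
Log2 fold change of knockout over wild-type for each of the 10 genes, after challenge (purple) and without challenge (brown), with SE bars; open circles are differences not called. All 10 challenged points lie between -2.05 and -0.75, and only Pdcd1, Ctla4 and Tnfrsf9 have a called difference without challenge.

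Levels were compared between genes per kilobase of merged exons. In challenged knockout libraries the order by mean was Cd274 at 38.2 CPM per kb, Tnfrsf18 at 27.4, Tigit at 24.05, Tnfrsf9 at 19.996, Lag3 at 11.7, Icos at 6.49, Tnfrsf4 at 5.60, Ctla4 at 5.08, Pdcd1 at 3.61 and Havcr2 at 2.78. The ranges over libraries of 5 of the 9 neighbouring pairs in this order overlapped: Tnfrsf18 with Tigit, Tigit with Tnfrsf9, Icos with Tnfrsf4, Tnfrsf4 with Ctla4, and Pdcd1 with Havcr2. In unchallenged knockout libraries Tnfrsf18 was first at 34.4 CPM per kb, Cd274 was at 16.5, and Ctla4 and Pdcd1 closed the order at 0.923 and 0.406, with 1 overlapping pair, Icos and Tnfrsf4. In challenged wild-type libraries Cd274 led at 128 CPM per kb, followed by Tnfrsf9 at 71.2, Tigit at 57.9 and Tnfrsf18 at 43.1, and Havcr2 was last at 7.60. Overlapping neighbours there were Tnfrsf4 with Ctla4 and Ctla4 with Pdcd1. In unchallenged wild-type libraries Tnfrsf18 led at 35.7 CPM per kb, followed by Tnfrsf9 at 21.3, and Pdcd1 was last at 1.13. Tigit and Cd274 overlapped there, as did Ctla4 and Havcr2. Cd274 thus headed the order in both challenged groups, and Tnfrsf9 stood above Tnfrsf18 in challenged wild-type and below it in the other 3 groups. With the longest transcript as the length, 6 of the 40 ranks changed.

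**Figure D4:**
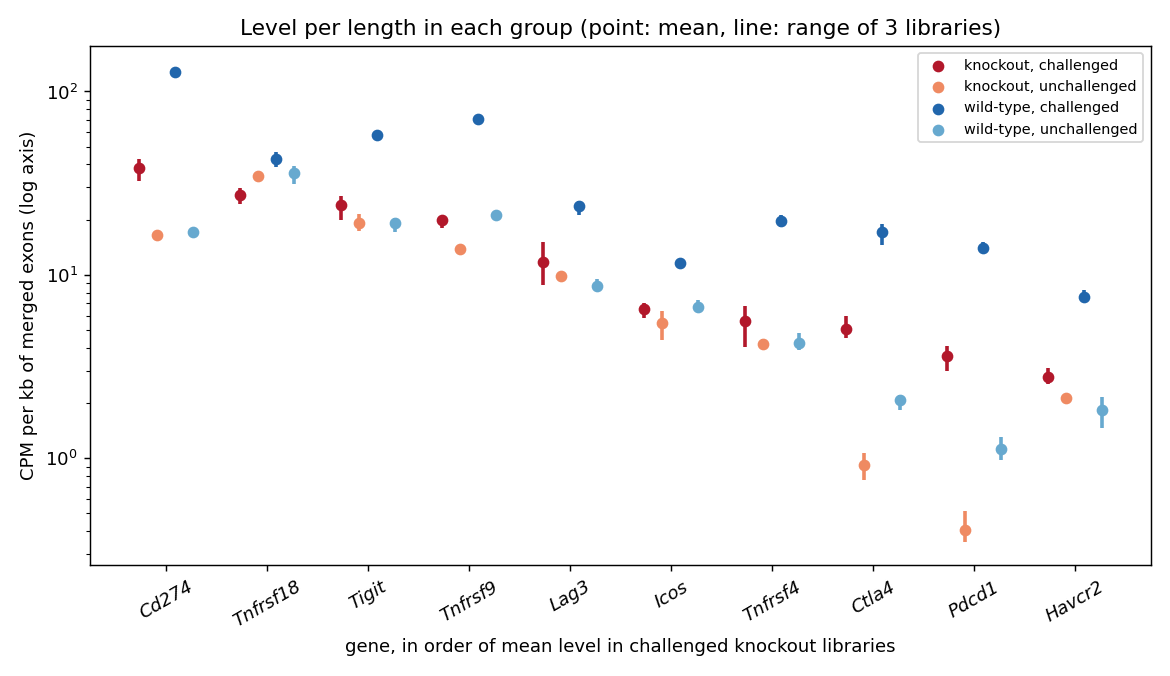
Mean level of each of the 10 genes in CPM per kilobase of merged exons (log axis), with lines for the range of the 3 libraries, in the 4 groups. Cd274 leads in challenged libraries, at 38.2 in knockout and 128 in wild-type, and Pdcd1 has the lowest level, 0.406 in unchallenged knockout.

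Most ligand genes of these and related receptors rose with challenge in wild-type libraries. Of 16 tested ligand genes, 8 rose and 1 fell with challenge in knockout, 11 rose and 4 fell with challenge in wild-type, and 3 were higher and 11 lower in challenged knockout than in challenged wild-type libraries. Over all genes tested, 30.9% fell with challenge in wild-type and 22.7% were higher in challenged knockout. Tnfsf18, Fgl1, Tnfsf15 and Vtcn1 did not pass the filter. Cd86, a ligand of CTLA-4 and CD28, averaged 30.7 ± 3.2 CPM in challenged knockout and 11.2 ± 1.0 CPM in unchallenged knockout libraries, against 140 ± 1.8 CPM in challenged wild-type and 12.2 ± 1.7 CPM in unchallenged wild-type libraries (SD, n = 3). Cd80, which binds the same receptors, averaged 5.48 ± 0.33 and 1.25 ± 0.61 CPM in challenged and unchallenged knockout, against 40.6 ± 2.3 and 1.66 ± 0.28 CPM in challenged and unchallenged wild-type libraries. Both rose in both genotypes and were lower in challenged knockout, Cd86 by log2 -2.28 ± 0.10 and Cd80 by -2.98 ± 0.16 (edgeR adjusted p = 1.25e-10 and 1.30e-09). The other PD-1 ligand gene, Pdcd1lg2, averaged 8.71 ± 1.2 CPM in challenged knockout libraries, against 26.1 ± 1.8 CPM in challenged wild-type ones (log2 -1.67 ± 0.13, edgeR adjusted p = 5.07e-08). Tnfsf4, the OX40 ligand gene, rose with challenge in knockout by log2 1.79 ± 0.22 (edgeR adjusted p = 2.32e-05), although Tnfrsf4 itself was not called there. Lgals9, which encodes galectin-9, rose with challenge in wild-type by log2 1.60 ± 0.08 (edgeR adjusted p = 1.31e-10).

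Other inhibitory and costimulatory receptor genes were mixed in direction. For comparison, 15.6% of all genes tested rose and 11.5% fell with challenge in knockout, and 32.4% rose and 30.9% fell in wild-type. In challenged knockout against challenged wild-type libraries, 22.7% of all genes were higher and 25.9% lower. Of 16 other inhibitory receptor genes, 4 rose and 5 fell with challenge in knockout, 4 rose and 10 fell with challenge in wild-type, and 8 were higher and 3 lower in challenged knockout than in challenged wild-type libraries (median log2 0.25). Cd96, a PVR-binding relative of TIGIT, averaged 56.7 ± 5.7 CPM in challenged knockout libraries, against 28.5 ± 3.0 CPM in challenged wild-type ones, and Cd244, a SLAM-family receptor of NK cells, 199 ± 12 and 105 ± 2.0 CPM. Klrg1, an NK inhibitory receptor of terminal differentiation, went the other way, at 43.5 ± 2.0 CPM in challenged knockout libraries, against 79.5 ± 3.7 CPM in challenged wild-type ones (log2 -0.96 ± 0.06, edgeR adjusted p = 8.09e-09). Of 17 other costimulatory receptor genes, 7 rose and 3 fell with challenge in knockout, 5 rose and 8 fell with challenge in wild-type, and 9 were higher and 6 lower in challenged knockout than in challenged wild-type libraries (median log2 0.35). Tnfrsf8 and Cd40, which are TNF receptor superfamily genes too, were lower in challenged knockout by log2 -2.28 ± 0.17 and -1.51 ± 0.09, whereas their relative Cd27 was higher by 1.02 ± 0.08 (edgeR adjusted p = 3.58e-08, 5.22e-09 and 5.60e-08).

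Among 25 receptor signalling genes, 4 were higher and 16 lower in challenged knockout than in challenged wild-type libraries (median log2 -0.23). With challenge, 6 rose and 4 fell in knockout, and 13 rose and 7 fell in wild-type. The list holds TRAF and NF-kB genes and also phosphatase, adaptor and kinase genes of other receptors, such as Ptpn6, Sh2d1a and Pik3cd. Nfkb2, an NF-kB subunit gene, averaged 132 ± 22 CPM in challenged knockout libraries, against 330 ± 20 CPM in challenged wild-type ones. Traf1, an adaptor of 4-1BB, averaged 211 ± 19 and 466 ± 20 CPM, and Birc3 and Relb were also lower in challenged knockout, by log2 -0.63 ± 0.06 and -1.39 ± 0.12 (edgeR adjusted p = 3.63e-07 and 5.18e-07). Of 26 activation and exhaustion factor genes, 9 were higher and 11 lower in challenged knockout (median log2 -0.03), after 10 rises and 7 falls with challenge in knockout and 10 rises and 8 falls in wild-type. The shares over all genes tested were 15.6% rising and 11.5% falling with challenge in knockout, and 32.4% rising and 30.9% falling in wild-type. Nr4a3, induced by antigen receptor signals, averaged 26.9 ± 3.1 CPM in challenged knockout libraries, against 127 ± 7.9 CPM in challenged wild-type ones. Eomes, a factor of NK identity, was higher in challenged knockout by log2 1.19 ± 0.07 (edgeR adjusted p = 7.09e-09). In this comparison, across all 16694 genes, 3792 were called higher and 4332 lower, and with column totals as the only scaling 4870 and 3361.

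**Figure D5:**
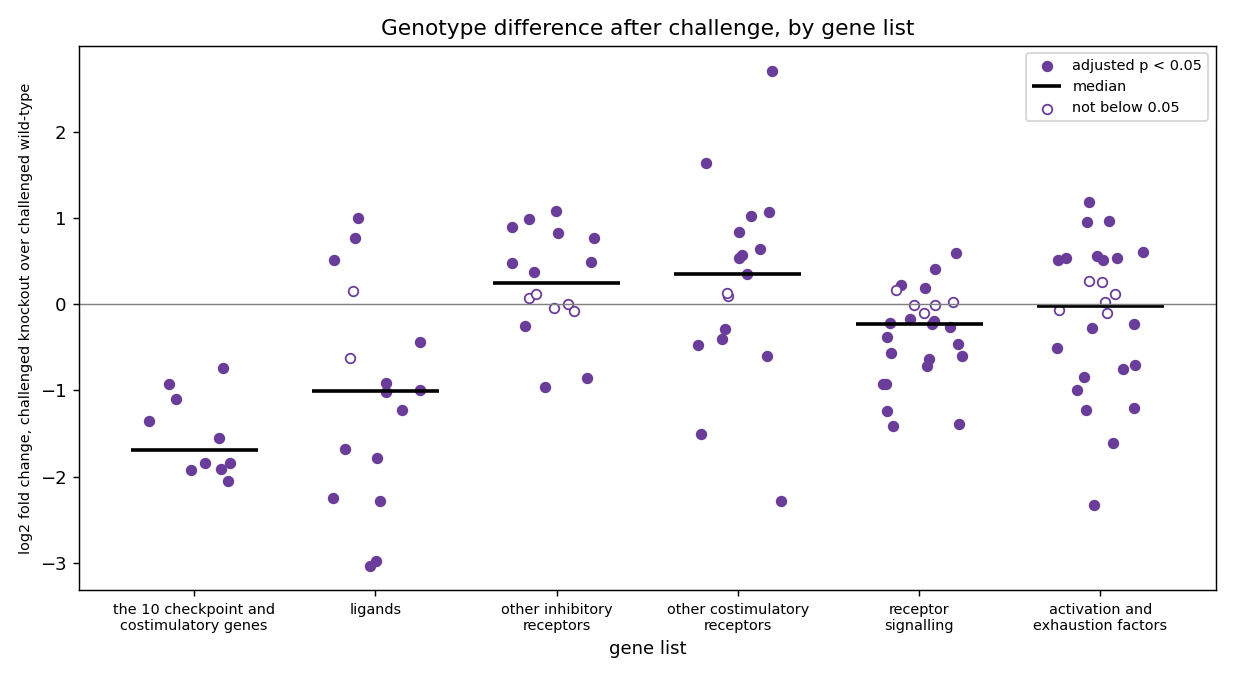
Log2 fold change of challenged knockout over challenged wild-type for each gene (points) of the 10 and of 5 related lists, with the list median as a bar; open circles were not called. The medians are -1.69 for the 10 genes and -1.01 for the ligands, and 0.25 and 0.35 for the other inhibitory and costimulatory receptors.

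Several of the 10 genes are also made by T cells, regulatory T cells and myeloid cells, so markers of those cells were read in the same libraries. In bulk RNA, fewer cells of a type and less RNA per cell cannot be told apart. The 15 T cell markers summed to 514 to 561 CPM in challenged knockout and 438 to 454 CPM in unchallenged knockout, against 313 to 321 CPM in challenged wild-type and 544 to 590 CPM in unchallenged wild-type libraries. With challenge 9 rose and 1 fell in knockout, and 14 fell in wild-type, where the 10 receptor and ligand genes rose. Without challenge 7 of the 15 were lower in knockout, where Pdcd1, Ctla4 and Tnfrsf9 were lower as well. The 9 matched regulatory T cell markers summed to 57.6 to 65.5 CPM in challenged knockout and 23.3 to 26.2 CPM in unchallenged knockout, against 208 to 224 CPM in challenged wild-type and 27.3 to 33.3 CPM in unchallenged wild-type libraries. With challenge, 6 of these 9 rose and 0 fell in knockout, and 5 rose and 1 fell in wild-type. In challenged knockout against challenged wild-type libraries, 2 were higher and 4 lower (median log2 -0.84). Most of the challenged wild-type sum was Il2ra, an activation gene too, at 153 ± 6.3 CPM, while the defining Foxp3 averaged 4.93 ± 1.0 CPM in challenged knockout and 3.93 ± 0.34 CPM in unchallenged knockout, against 4.86 ± 0.57 CPM in challenged wild-type and 4.58 ± 0.48 CPM in unchallenged wild-type libraries, and Foxp3 was called in none of the 5 comparisons.

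Neutrophil, macrophage, B cell and regulatory T cell markers, like Cd274, had higher sums in challenged than in unchallenged libraries of both genotypes. The regulatory T cell sum in challenged wild-type was mostly Il2ra. Of 12 neutrophil, 15 macrophage and monocyte and 11 B cell markers, 9, 11 and 9 rose and 3, 1 and 0 fell in knockout. In wild-type 12, 13 and 7 rose and 0, 1 and 1 fell. Of all genes tested, 15.6% rose and 11.5% fell in knockout, and 32.4% rose and 30.9% fell in wild-type. The 12 neutrophil markers summed to 1007 to 1498 CPM in challenged knockout and 527 to 547 CPM in unchallenged knockout, against 2043 to 2421 CPM in challenged wild-type and 89.2 to 95.7 CPM in unchallenged wild-type libraries. In unchallenged libraries 11 of the 12 were higher in knockout than in wild-type, while Cd274 overlapped between the genotypes, and 6.64% of all genes tested were higher there. The 15 macrophage and monocyte markers summed to 1387 to 1720 CPM in challenged knockout and 1259 to 1298 CPM in unchallenged knockout, against 1854 to 2106 CPM in challenged wild-type and 1133 to 1164 CPM in unchallenged wild-type libraries. The 12 dendritic cell markers summed to 694 to 898 CPM in challenged knockout and 1014 to 1093 CPM in unchallenged knockout, against 974 to 1139 CPM in challenged wild-type and 892 to 966 CPM in unchallenged wild-type libraries. Although the challenged knockout sums were lower, 6 of the 12 were higher and 5 lower there than in challenged wild-type (median log2 0.29). Over all genes tested, 22.7% were higher and 25.9% lower in that comparison. The 11 B cell markers summed to 1773 to 1856 CPM in challenged knockout and 1252 to 1285 CPM in unchallenged knockout, against 2012 to 2089 CPM in challenged wild-type and 1685 to 1915 CPM in unchallenged wild-type libraries. Other lists moved as well. The 11 erythroid markers summed to 20064 to 25116 CPM in challenged knockout and 36895 to 41492 CPM in unchallenged knockout, against 1755 to 2339 CPM in challenged wild-type and 11709 to 13687 CPM in unchallenged wild-type libraries, and all 11 were higher in knockout with and without challenge. The 14 innate lymphoid cell markers summed to 278 to 336 CPM in challenged knockout and 320 to 332 CPM in unchallenged knockout, against 257 to 296 CPM in challenged wild-type and 362 to 382 CPM in unchallenged wild-type libraries. Of the 12 of them that were tested, 8 rose and 2 fell with challenge in each genotype, and 2 were higher and 7 lower in challenged knockout than in challenged wild-type libraries. The 9 platelet markers summed to 350 to 402 CPM in challenged knockout and 277 to 293 CPM in unchallenged knockout, against 355 to 416 CPM in challenged wild-type and 550 to 747 CPM in unchallenged wild-type libraries. The challenged sums of the genotypes overlapped, while 6 of the 9 were higher and 1 lower in challenged knockout than in challenged wild-type (median log2 1.17). The 8 basophil and mast cell markers summed to 345 to 407 CPM in challenged knockout and 376 to 382 CPM in unchallenged knockout, against 492 to 499 CPM in challenged wild-type and 268 to 303 CPM in unchallenged wild-type libraries. No marker of these lists was at 0 in all libraries, and the part of these cells in the results on the 10 genes was not tested.

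Some of the 10 genes are neighbours on the chromosome (GRCm38). Ctla4 (chr1:60887000-60915832) and Icos (chr1:60977927-61000320) lie 62095 bases apart on the plus strand, next to Cd28, the third receptor of that cluster. Cd28 fell with challenge in wild-type, by log2 -0.88 ± 0.10 (edgeR adjusted p = 1.29e-06), where Ctla4 and Icos rose. Tnfrsf4 (chr4:156013843-156016612) and Tnfrsf18 (chr4:156026164-156028895) lie 9552 bases apart on the plus strand, and their changes with challenge in wild-type were 2.32 and 0.37 on the log2 scale. Lag3 (chr6:124904361-124911705, minus strand) lies 16140 bases from Cd4, which rose in knockout by log2 0.37 ± 0.08 and fell in wild-type by 0.64 ± 0.08 (edgeR adjusted p = 0.00231 and 4.26e-06). Cd274 (chr19:29367455-29388095) lies 22824 bases from Pdcd1lg2, which rose with challenge in both genotypes, by log2 0.999 ± 0.14 in knockout and 2.15 ± 0.13 in wild-type (edgeR adjusted p = 9.35e-05 and 1.44e-09). Pdcd1 (chr1:94038305-94052553), Tigit (chr16:43648867-43664146), Havcr2 (chr11:46454935-46481255) and Tnfrsf9 (chr4:150914562-150946102) have no other member nearby. Cd274, Tnfrsf9 and Tnfrsf18 overlap annotated genes on the opposite strand, AC119228.1, Camta1 and Gm16008, and Ctla4 and Icos overlap Rpl18-ps1 and Gm37039 on the same strand. Whether the counting used strand was not given in the sources used here, so reads in the opposite-strand overlaps are of uncertain origin. Reads in the same-strand overlaps could not be told apart by strand in either case.

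The genes most like each of the 10 over the 12 libraries were taken by Pearson correlation of log2 CPM among 10693 genes, as a description, since the libraries share 4 groups and the challenged wild-type libraries set the upper end of most patterns. Pdcd1 and Ctla4 were among each other's nearest 3 (r = 0.993), as were Tigit and Tnfrsf4 (r = 0.994). The nearest gene was H2-DMb2 for Pdcd1, Ms4a4c for Ctla4, Stra6l for Lag3, Ccl22 for Havcr2, Tnfrsf4 for Tigit and Poglut1 for Tnfrsf4. It was Il2ra for Cd274, with Cd86 next (both r = 0.998), Birc2 for Icos, Ehd4 for Tnfrsf9 and Pacsin2 for Tnfrsf18. These neighbours depended on the measure. By Spearman rank correlation, Pdcd1 and Ctla4 were not among each other's nearest 3, nor were Tigit and Tnfrsf4. Of all the nearest 3 by Pearson correlation, only Selenos for Tnfrsf9 and Pacsin2 for Tnfrsf18 stayed. Among the 36 pairs without Tnfrsf18, r ranged from 0.838 to 0.994, and among the 9 pairs with Tnfrsf18 from 0.390 to 0.702.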

How the data were processed

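Per the submitters' processing notes, the reads were handled with bcl2fastq, Trim Galore 0.4.1, Bowtie2 2.2.8 and RSEM 1.3.0 on GRCm38. The authors deposited 1 table of whole-number counts per gene for the 12 libraries. Neither the annotation release nor any rounding is stated in those notes. The counts were taken as deposited, and CPM are counts per 1000000 counts of a library.

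Genes were filtered with filterByExpr, library sizes scaled by TMM, and a model with 4 group means fitted with edgeR 4.0.16 (R 4.3.3), with quasi-likelihood tests and Benjamini-Hochberg adjustment over 16694 genes. The test was checked on simulated data. DESeq2 1.42.0, limma-voom (limma 3.58.1), other scalings and filters, a block on replicate number and leaving out libraries were alternatives.

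The 10 genes and the gene lists were chosen with earlier results of these data known. Named list genes were the up to 4 called with the smallest p in each challenge comparison and in the challenged genotype comparison, and ligands and neighbours of the 10. Of these, 1 is not reported here. Positions and untranslated regions are from GENCODE vM21, and promoters and microRNAs from RefSeq. No library was taken for a copy of another. Totals of 17624530 to 23665679 counts limit precision for genes of few reads, such as Pdcd1.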

Additional observations from a re-analysis of the deposited data

Results flagged for a closer look

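The response to challenge differed between the genotypes for 9 of the 10 genes by edgeR's quasi-likelihood test of the difference itself, knockout response minus wild-type response on the log2 scale. All 9 had a lower response in knockout, where 18.5% of all genes tested were called lower. The difference was -1.91 for Tnfrsf4, -1.80 for Cd274, -1.77 for Havcr2, -1.37 for Tigit, -1.33 for Tnfrsf9, -1.31 for Lag3, -0.71 for Tnfrsf18, -0.69 for Ctla4 and -0.67 for Icos. The Ctla4 call held in only 14 of 21 other settings. Tnfrsf18 is the case in which the direction differed, since it fell by 0.34 in knockout and rose by 0.37 in wild-type. Groups of 3 libraries are too small for a search for single outlying libraries.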

How the results depend on the processing

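Of 1090 recomputed log2 changes of the 10 genes, 1030 kept their direction and their side of the threshold, 42 lost their call, 7 gained one and 11 changed sign. The genes called numbered 10 with challenge in wild-type and 10 in challenged knockout against challenged wild-type under every alternative run. With challenge in knockout, 7 genes were called, and 4 to 8 when 1 library was left out, with 4 without challenged knockout replicate 2. The changes of sign were all small values that were never called, in unchallenged knockout against wild-type. Tigit was at -0.0102 with column totals alone and ranged from -0.0856 to 0.0751 when 1 library was left out, with its sign turned without unchallenged knockout replicate 4 and without unchallenged wild-type replicate 2 (-0.0673). Tnfrsf4 was at -0.0144 with column totals alone, -0.0519 without both doubted libraries and -0.0522 to 0.1123 when 1 library was left out, with its sign turned without unchallenged knockout replicate 4 (-0.0395), and without unchallenged wild-type replicate 2 (-0.0267) or 4. Tnfrsf18 was at 0.005 without unchallenged knockout replicate 2, 0.04 without unchallenged wild-type replicate 4 and 0.0403 without both doubted libraries.

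With the replicate number as a block, 4 of the 10 genes were called with challenge in knockout, and no other count of the 10 moved by over 1.5 times. The labels do not say that a number marks a shared animal or day, and titles of unchallenged libraries carry 2 numberings, of which the first was used. Libraries of the same number had residual correlations of 0.249 and 0.0236 between challenged and unchallenged knockout, 0.0165 and 0.144 between challenged and unchallenged wild-type, -0.317, 0.0576 and -0.148 between challenged knockout and wild-type, and 0.120, -0.0485 and 0.00589 between unchallenged knockout and wild-type, so they were not taken as pairs.

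Scaling moved the median of all genes with challenge in wild-type to -0.12 by upper quartiles and to -0.11 by column totals, and the median difference of responses to 0.12 by column totals, all on the log2 scale. With challenge in knockout, 2596 genes were called higher and 1915 lower, and by upper quartiles 2263 and 2583. For the difference of responses the numbers were 2791 and 3085, and by column totals 3836 and 2380. In challenged knockout against wild-type, by upper quartiles, 4606 and 3520 replaced 3792 and 4332. The cause was not tested.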
